A study of Mus musculus with 2 samples.

Results

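The genes described here are 8 genes of the extracellular adenosine pathway, Nt5e, Entpd1, Adora2a, Adora2b, Ada, Adk, Dpp4 and P2rx7, taken by symbol from the 55246 loci of the deposited table of read counts. All 8 symbols matched 1 locus each. The RNA came from regulatory T cells (Treg cells) of the colon lamina propria of female mice, with 1 library from wild-type mice (WT) and 1 from mice labelled Exon2KO, whose Foxp3 allele lacks exon 2. The age and strain of the mice, any shared allele, the sorting scheme and the number of mice pooled in a library are not given in the sources used here. With 1 library per genotype there is no replicate spread and no test between genotypes: every interval covers counting error in these libraries only, and any difference between the mice other than the genotype cannot be told apart from it.

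Adenosine is made outside the cell when CD39 (Entpd1) strips phosphates from ATP and ADP, and CD73 (Nt5e) then removes the last phosphate from AMP. It acts on T cells mainly through the A2a receptor (Adora2a), which raises cyclic AMP, and it is removed by deamination (Ada) or by phosphorylation inside the cell (Adk). Mouse Treg cells are known to carry both CD39 and CD73 on their surface, and ATP that has not been degraded opens the channel P2X7 (P2rx7). CD26 (Dpp4) is a surface peptidase whose human form binds adenosine deaminase.

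Of the 8 genes, the most abundant per gene length were Nt5e and Adora2a, and Adora2b was the lowest. Between the libraries, Adora2a was at 54.6% of the WT level in the Exon2KO library, Adk at 62.4% and Ada at 70.3%. Nt5e was at 83.8%, while Entpd1 (100%), P2rx7 (97.0%) and Dpp4 (119%) were near or above the WT level. Only Adora2b, at 12 and 1 reads, lay past 2-fold. In bulk RNA, fewer cells of a type and less RNA per cell cannot be told apart.

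The RefSeq promoter table (build GRCm38.p6) held 10 windows of 300 bases for 7 of the 8 genes, with none for Adora2a. Each window runs from 250 bases before a start site to 50 after it. The 5 printed here are those of the enzymes: the pair that makes adenosine (Entpd1, Nt5e), the pair that removes it (Ada, Adk) and the peptidase Dpp4. Sequences run 5′ to 3′ on the strand of the gene, and capitals mark the GC box, GGGCGG, on either strand. The windows are chr9:88327359-88327658 (plus strand), chr2:163750190-163750489 (minus), chr14:21052324-21052623 (plus, the upstream of a pair of Adk starts), chr19:40612116-40612415 (plus, likewise the upstream start) and chr2:62412182-62412481 (minus).
Nt5e: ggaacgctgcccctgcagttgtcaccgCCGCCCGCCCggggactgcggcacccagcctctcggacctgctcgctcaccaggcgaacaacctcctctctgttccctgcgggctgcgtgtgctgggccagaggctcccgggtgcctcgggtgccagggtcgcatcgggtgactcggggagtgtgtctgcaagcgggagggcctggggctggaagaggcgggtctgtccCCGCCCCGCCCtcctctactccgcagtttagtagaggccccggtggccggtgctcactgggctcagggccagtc
Ada: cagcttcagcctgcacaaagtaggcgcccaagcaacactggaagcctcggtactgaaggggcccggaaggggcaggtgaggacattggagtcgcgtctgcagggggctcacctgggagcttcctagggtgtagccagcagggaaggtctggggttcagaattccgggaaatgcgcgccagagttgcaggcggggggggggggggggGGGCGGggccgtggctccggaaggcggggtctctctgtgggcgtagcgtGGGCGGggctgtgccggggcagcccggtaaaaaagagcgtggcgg
Adk: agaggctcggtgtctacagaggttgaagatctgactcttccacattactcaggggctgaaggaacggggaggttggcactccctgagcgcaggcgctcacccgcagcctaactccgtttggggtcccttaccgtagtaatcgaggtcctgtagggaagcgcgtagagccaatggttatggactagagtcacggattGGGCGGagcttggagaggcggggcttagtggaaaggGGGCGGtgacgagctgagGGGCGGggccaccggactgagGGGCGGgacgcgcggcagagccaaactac
Entpd1: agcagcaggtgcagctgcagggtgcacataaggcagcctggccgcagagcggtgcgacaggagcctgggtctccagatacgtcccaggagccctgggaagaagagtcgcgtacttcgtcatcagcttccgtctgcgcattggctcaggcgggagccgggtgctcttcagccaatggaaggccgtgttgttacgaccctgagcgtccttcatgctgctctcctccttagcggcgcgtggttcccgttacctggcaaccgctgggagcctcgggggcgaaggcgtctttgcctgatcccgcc
Dpp4: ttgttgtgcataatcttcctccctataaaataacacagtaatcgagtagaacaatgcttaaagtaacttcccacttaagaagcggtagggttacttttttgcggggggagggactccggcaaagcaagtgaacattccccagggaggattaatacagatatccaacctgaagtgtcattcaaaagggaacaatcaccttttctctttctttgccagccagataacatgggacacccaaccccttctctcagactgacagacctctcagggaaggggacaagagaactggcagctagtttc

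GC boxes numbered 4 in the Nt5e window, 2 in that of Ada and 4 in each of both Adk windows. The Adora2b window held 6, the upstream P2rx7 window 2 and the downstream one 0. The windows of Entpd1 and Dpp4 held 0. Over 32851 promoter windows of the same length 35.7% held a GC box. Matches may overlap, as they do in pairs in the Nt5e window. G and C made up from 45.3% (Dpp4) to 75.0% (downstream Adk) of the 10 windows, against a median of 52.7% over all windows. Below that median lay the windows of Dpp4, the downstream Entpd1 start (48.7%) and the downstream P2rx7 start (51.7%). The half-site TGACG, to which cyclic AMP response factors bind, occurred once in each Entpd1 window and once in the upstream Adk window, with 20.8% of all windows holding a match. The forkhead core GTAAACA, present in 3.65% of all windows, and the hypoxia response core ACGTG, in 19.6%, had no match in the 10 windows. CCAAT, in 37.4% of all windows, matched in both Entpd1 windows, both Adk windows and those of Adora2b and Ada. The RUNX core TGTGGT (16.8%) matched once, in the downstream Entpd1 window, and the nuclear receptor half-site AGGTCA (16.3%) once, in the downstream P2rx7 window. These 7 motifs were searched on both strands, and a match describes letters only.

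The WT library held 16281133 reads and the Exon2KO library 15412425, so 3 reads correspond to 0.191 and 0.188 CPM (reads relative to the library size, scaled by TMM, a trimmed mean of the genes' log ratios). Foxp3, which carries the deletion, had 6991 and 20946 reads, a log2 ratio of 1.56 (95% interval 1.52 to 1.60); a count over the whole gene does not check the loss of 1 exon. Transcripts of other cells were present: 6.49% of WT reads and 5.93% of Exon2KO reads fell in immunoglobulin genes. All 9 T cell identity markers were detected in both, with most reads for Cd2 (32787 and 19603); the interval lay below 0 for 7 of them, above 0 for Cd4, and held 0 for Cd3e. In the Treg marker list 8 of 12 genes lay past 2-fold lower in the Exon2KO library and 1, Foxp3, past 2-fold higher.

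Levels below are compared between genes as FPKM (CPM divided by gene length in kilobases), with exact Poisson intervals of 95%. In the WT library Nt5e stood at 38.9 (37.8 to 39.9) and Adora2a at 29.4 (27.9 to 31.0). These placed Nt5e above 91.2% and Adora2a above 89.1% of the 15328 protein-coding genes with a read in either library. The intervals of Ada (6.56), P2rx7 (6.06) and Adk (6.01) overlapped from one to the next, and Dpp4 (5.10) and Entpd1 (4.21) followed. Adora2b was at 0.414 (0.214 to 0.724). In the Exon2KO library Nt5e (32.6) and Adora2a (16.0) again led, followed by Dpp4 (6.10) and P2rx7 (5.88), whose intervals overlapped. The intervals of Ada (4.59), Entpd1 (4.23) and Adk (3.74) overlapped from one to the next. Overlap of separate intervals is not a test of their order.

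**Figure D1:**
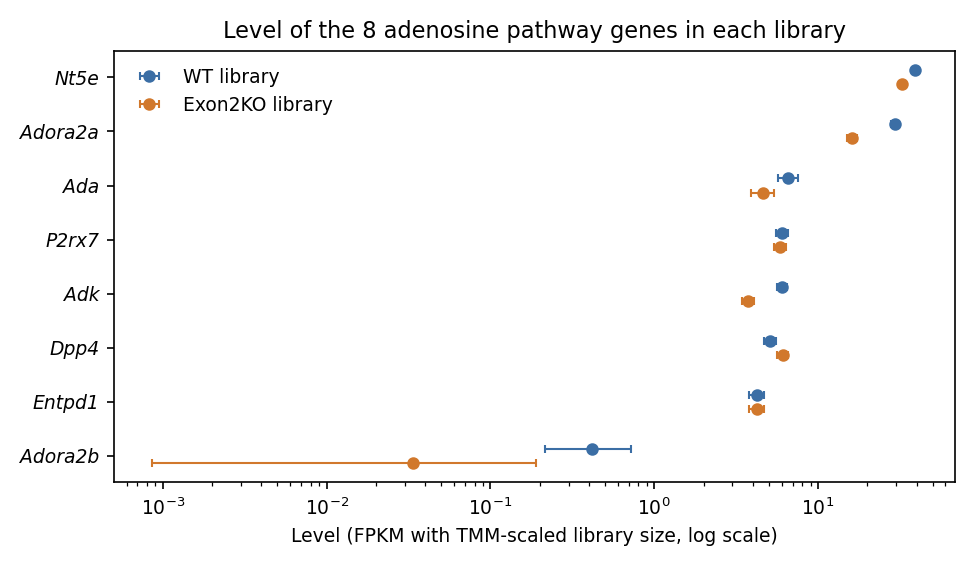
Level of the 8 genes in FPKM (log scale), with 95% Poisson intervals, for WT (blue) and Exon2KO (orange). Nt5e and Adora2a stand apart at 16.0 or more in both libraries, 5 genes lie between 3.74 and 6.56, and Adora2b lies below 0.5.

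The genes that make adenosine were Entpd1 and Nt5e. Nt5e (ENSMUSG00000032420, chromosome 9, 88327197 to 88372092, plus strand, GRCm38) had 5248 reads in WT and 4479 in Exon2KO, or 334 and 280 CPM. It alone held 57.5% of all reads of the 8 genes in WT and 59.9% in Exon2KO. Its log2 ratio, Exon2KO over WT, was -0.26 (-0.31 to -0.20). This small difference was larger than counting error, but it turned to 0.16 when libraries were scaled to T cell identity genes. That scaling, here and below, sets the summed reads of the 9 markers equal. Cd2 alone made up 2089 of 6631 CPM of that sum in WT and 1226 of 4958 CPM in Exon2KO, so the scaling leans on few genes.

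Entpd1 (ENSMUSG00000048120, chromosome 19, 40612366 to 40741602, plus strand) had 369 reads in WT and 377 in Exon2KO, or 23.5 and 23.6 CPM. The log2 ratio was 0.00 (-0.21 to 0.22), so counting error at this depth hides any difference within that interval under TMM scaling. Scaled to T cell identity genes it was 0.42 (0.21 to 0.63), an interval above 0. Nt5e exceeded Entpd1 per length 9.23-fold in WT and 7.71-fold in Exon2KO. The log2 ratio of Entpd1 exceeded that of Nt5e by 0.26 (0.04 to 0.48), a difference that needs no library scaling. GENCODE M21 lists 11 Entpd1 transcripts from several starts, and gene counts do not separate them. The intron-borne pseudogene Gm8783 (21 and 17 reads) shares no annotated Entpd1 exon.

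Among the receptors, Adora2a (ENSMUSG00000020178, chromosome 10, 75316877 to 75334784, plus strand) had 1414 reads in WT and 785 in Exon2KO, or 90.1 and 49.1 CPM. This is the adenosine receptor gene with most reads in both libraries. The log2 ratio was -0.87 (-1.003 to -0.75), 1.83-fold lower in the Exon2KO library and short of 2-fold. Of all genes tested (at least 10 reads over both libraries), 9.7% had a lower ratio. For it the authors' deposited table lists an adjusted p-value of 0.32 and a fold change of -0.88 on the log2 scale. Scaled to T cell identity genes the log2 ratio was -0.46.

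Adora2b (ENSMUSG00000018500, chromosome 11, 62248984 to 62266453, plus strand), which encodes a receptor of lower adenosine affinity, had 12 reads in WT and 1 in Exon2KO. It was the only one of the 8 genes past 2-fold, with a log2 ratio of -2.24 (with a prior count of 2 added to each library to damp low counts) whose 95% counting interval was -9.03 to -0.85. Past 2-fold in the lower direction lay 8.14% of the 17363 genes tested, and 9.38% in the higher direction, so 1 gene of 8 is near the background. Among genes with at least 100 reads, which leaves out Adora2b, the shares were 4.44% and 3.79%. The Exon2KO count lies under the 3 reads that a count of 0 allows, and the size of the difference is therefore not known. Adora1 had 0 reads in both libraries and Adora3 had 2 and 0.

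P2rx7 (ENSMUSG00000029468, chromosome 5, 122643911 to 122691432, plus strand), the ATP-gated channel, had 568 and 561 reads, or 36.2 and 35.1 CPM. Its log2 ratio was -0.04 (-0.22 to 0.13), an interval that held 0. The sign was positive with total-count scaling (0.06), and scaled to T cell identity genes the log2 ratio was 0.37 (0.20 to 0.55), an interval above 0. The log2 ratio of Adora2a lay below that of P2rx7 by 0.83 (0.62 to 1.05), also without any scaling.

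Both enzymes that remove adenosine were lower in the Exon2KO library. Adk (ENSMUSG00000039197, chromosome 14, 21052574 to 21448569, plus strand), adenosine kinase, had 804 reads in WT and 510 in Exon2KO, or 51.2 and 31.9 CPM, at a log2 ratio of -0.68 (-0.85 to -0.52). Ada (ENSMUSG00000017697, chromosome 2, 163726584 to 163750239, minus strand), adenosine deaminase, had 206 and 147 reads, or 13.1 and 9.19 CPM, at -0.51 (-0.83 to -0.20). The log2 ratios of Ada and Adk differed by 0.17 (-0.19 to 0.52), which counting error covers. Neither reached 2-fold. Scaled to T cell identity genes they were at -0.26 for Adk and -0.09 for Ada, and the interval of Ada then held 0 (-0.41 to 0.22).

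Dpp4 (ENSMUSG00000035000, chromosome 2, 62330073 to 62412231, minus strand) had 506 reads in WT and 616 in Exon2KO, or 32.2 and 38.5 CPM. With TMM scaling it was the only one of the 8 whose interval lay above 0, at a log2 ratio of 0.26 (0.09 to 0.43), 1.19-fold higher. Scaled to T cell identity genes it was at 0.67, and the intervals of Entpd1, Nt5e and P2rx7 lay above 0 as well. The antisense gene Gm13561 overlaps its exons and had 4 reads in WT and 1 in Exon2KO. The log2 ratio of Dpp4 exceeded that of Nt5e by 0.51 (0.33 to 0.69).

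The interval lay below 0 for 5 of the 8 genes (Nt5e, Adora2a, Adora2b, Ada and Adk), where 24.6% of all genes tested had such an interval, and above 0 for 1, where 22.8% did. An interval narrows with reads: among genes with at least 100 reads, 30.8% lay below 0 and 25.5% above, against 4 and 1 of the 7 genes other than Adora2b. With the same TMM scaling the median log2 ratio of all 8 genes, Adora2b included, was -0.38, against 0.0035 over all genes tested. Scaled to T cell identity genes, 3 intervals lay below 0 and 4 above. Of the 28 pairs among the 8 genes, 22 differed in log2 ratio by more than counting error. The pairs that did not were Entpd1 with P2rx7, Entpd1 with Dpp4, Nt5e with Ada, Adora2a with Adora2b, Adora2a with Adk, and Ada with Adk. Leaving out Adora2b, 16 of 21 pairs differed. The pairs share genes, and the share over pairs of all genes was not computed, so the count does not set these genes apart. In the authors' deposited table the lowest adjusted p-value among the 8 was 0.121, for Adora2b.

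**Figure D2:**
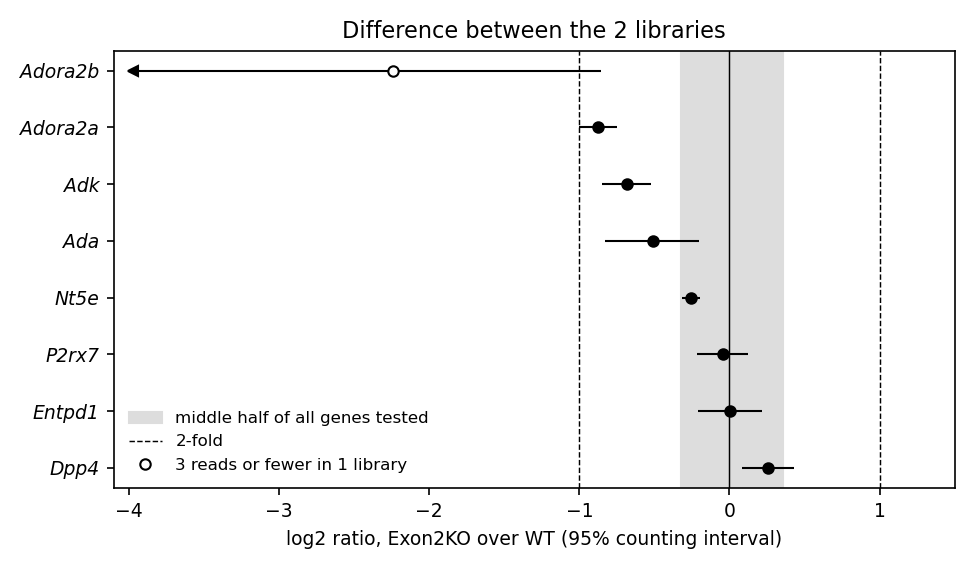
Log2 ratio of Exon2KO over WT for each gene with its 95% counting interval. Dashed lines mark 2-fold, the grey band is the interquartile range of all genes tested (-0.33 to 0.35), the open symbol has 3 reads or fewer in 1 library, and the arrowhead marks an interval that runs on to -9.03. Adora2b, Adora2a, Adk and Ada lie left of the band, while Nt5e, P2rx7, Entpd1 and Dpp4 lie inside it.

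Other genes of purine handling and cyclic AMP signalling were taken from 7 lists by role that had members with enough reads, plus Adora1 and Adora3. Of 97 genes found, 71 were tested; 5 lay past 2-fold higher and 6 past 2-fold lower, against 9.38% and 8.14% of all genes tested. The counts were 10 higher and 3 lower when scaled to T cell identity genes. With TMM scaling their median log2 ratio was -0.02. Of the 11 genes, 5 had at least 100 reads in 1 library. The other 6 (Alpl, Lrrc8a and Adcy4 higher; Enpp2, Slc29a4 and Ampd3 lower) had fewer and were singled out after their values were seen.

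Of the extracellular nucleotide enzymes 7 of 10 were tested, with 1 past 2-fold higher and 1 lower. The most abundant per length was Cd38, an enzyme that consumes NAD, with 363 and 428 reads at a log2 ratio of 0.21 (0.01 to 0.42). Among ATP release genes and partners of P2X7, 2 of 5 lay past 2-fold higher and 1 lower. Art2b encodes the surface ADP-ribosyltransferase that lets NAD open P2X7 on mouse T cells. It fell, with 442 reads in WT against 177, at -1.34 (-1.61 to -1.09) on the log2 scale, while P2rx7 itself was at -0.04; reads may be shared with its close copy Art2a-ps, and the ratio was short of 2-fold when scaled to T cell identity genes. Gja1, which encodes the channel protein connexin 43, rose from 71 to 275 reads, at 1.90 (1.55 to 2.32). Panx1, a channel through which T cells release ATP and the most abundant of these genes per length, had 1846 and 1432 reads, at -0.39 (-0.49 to -0.29).

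Of 14 further genes with P2 receptor names 4 had enough reads. P2ry14, the receptor of UDP-glucose, fell from 141 to 21 reads, at -2.66 (-3.51 to -2.11). The most abundant per length was P2ry10, which is named for its sequence and encodes a lysophosphatidylserine receptor, not a nucleotide receptor, with 5394 and 6447 reads at 0.23 (0.18 to 0.28). Among the nucleoside transporters 1 of 5 tested genes lay past 2-fold lower and 0 higher. Slc29a1, the equilibrative transporter through which adenosine enters cells, had 897 and 922 reads and a log2 ratio of 0.01 (-0.12 to 0.15).

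The 20 tested enzymes of intracellular adenosine and AMP had a median log2 ratio of -0.05, with 2 past 2-fold lower and 0 higher. Hprt, a purine salvage enzyme, was the most abundant per length, with 3293 and 3016 reads at -0.15 (-0.23 to -0.08). Dck, a kinase that phosphorylates deoxyadenosine, fell from 599 to 291 reads, at -1.06 (-1.28 to -0.86); it was short of 2-fold with total-count scaling and when scaled to T cell identity genes.

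Downstream of the A2 receptors, 24 genes of cyclic AMP signalling had a median of 0.12, with 2 past 2-fold higher and 0 lower. Pde3b, a phosphodiesterase that degrades cyclic AMP, rose from 158 to 423 reads, at 1.38 (1.13 to 1.67). Crem, a transcription factor gene that cyclic AMP induces, was the most abundant per length, at 96193 and 107475 reads and a log2 ratio of 0.13 (0.12 to 0.15). In the DPP4 family none of 6 tested genes lay past 2-fold, and the median was -0.25. Its most abundant gene per length, Dpp3, had 802 and 761 reads, at -0.10 (-0.25 to 0.04).

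**Figure D3:**
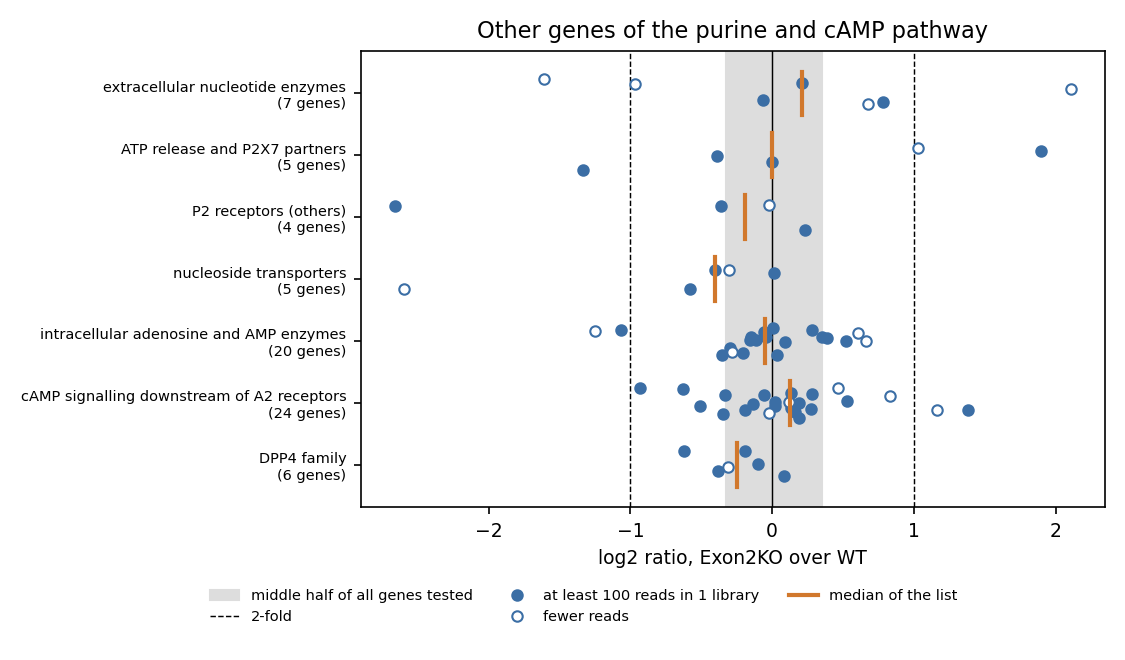
Log2 ratio of Exon2KO over WT for the 71 tested genes of the pathway lists, by role. Filled symbols have at least 100 reads in 1 library, orange bars are list medians (from -0.41 to 0.21), dashed lines mark 2-fold and the grey band is the interquartile range of all genes tested. P2ry14 and Art2b are the filled symbols farthest to the left, and Gja1 and Pde3b those farthest to the right.

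Several of the 8 genes are also expressed by other cells of the gut wall: Dpp4 by absorptive epithelium, Nt5e and Entpd1 by endothelial cells and B cells, Entpd1 by myeloid cells. The summed level of 12 absorptive epithelium markers was 60.5 CPM in WT and 226 CPM in Exon2KO, with 7 of 11 tested genes past 2-fold higher, and that of 10 general epithelial markers was 101 and 380 CPM, with 7 of 10. Car1 alone made up 1.53 and 114 CPM of the absorptive sum, whose other 11 genes came to 58.9 and 111 CPM, and Fabp2 and Aqp8 had 0 reads in WT. Epcam, the general epithelial marker with most reads in WT (782, against 609 in Exon2KO), was not higher, nor was Muc2 (41 and 21). Their part in the Dpp4 value was not tested.

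Endothelial markers summed to 65.6 and 66.6 CPM, with 4 of 8 genes past 2-fold higher and Cdh5 at 0 reads in WT. Pecam1, which leukocytes also express, made up 58.4 and 52.2 CPM of these sums, and the other 7 genes summed to 7.14 and 14.4 CPM. B and plasma cell markers summed to 8483 and 8031 CPM, with 1 of 8 tested genes past 2-fold higher (Sdc1) and 2 lower. Myeloid markers summed to 47.3 and 55.8 CPM, with 1 of 7 lower. Stromal markers summed to 23.2 and 24.0 CPM, with 1 of 7 tested genes higher. Of the 6 mast cell markers Kit had 149 and 53 reads, Cpa3 had 1 and 0, and the other 4 had 0 reads in both libraries. The part of these cells in the Nt5e and Entpd1 values was not tested.

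Among T cells, 9 identity markers summed to 6631 CPM in WT and 4958 in Exon2KO, with 7 of 9 intervals below 0. Naive and central memory markers summed to 1928 and 1284 CPM, with 4 of 8 genes past 2-fold lower. The 8 gamma-delta T cell markers summed to 13.95 and 84.3 CPM, with 6 past 2-fold higher and 1 lower. Tcrg-C1 alone made up 7.84 and 64.7 CPM, while the delta chain genes Trdc (14 and 13 reads) and Trdv4 (15 and 1) were not higher. CD8 and natural killer markers went from 348 to 23.1 CPM, with 3 of 8 tested genes lower and 1 higher. Gzma alone made up 328 CPM of the WT sum and 10.3 CPM of the Exon2KO sum. The other 8 genes of that list summed to 19.9 and 12.8 CPM. The part of these populations in the lower Adora2a, Adk and Ada levels was not tested.

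**Figure D4:**
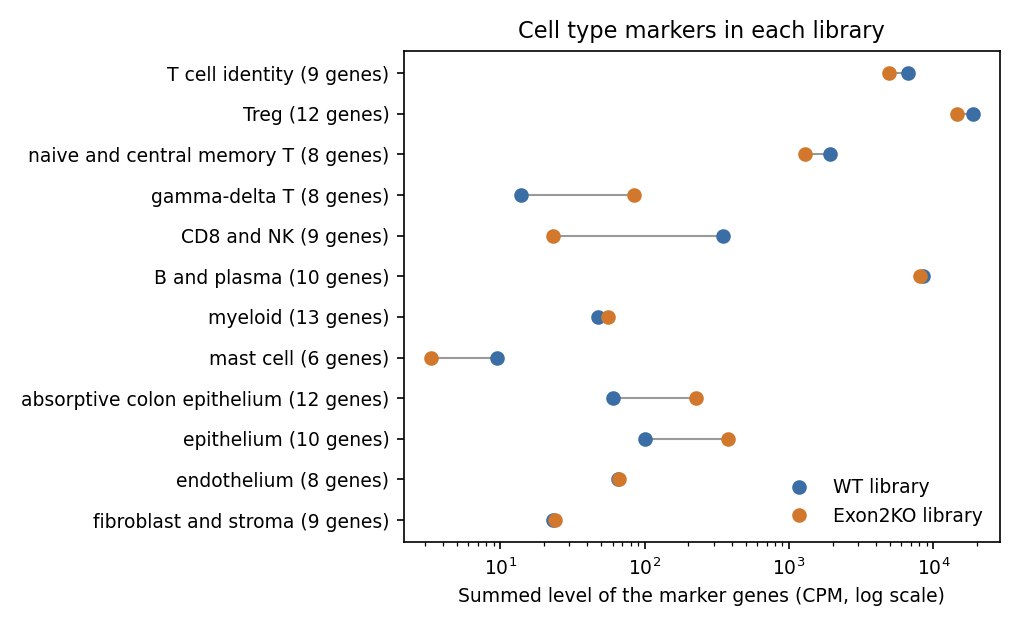
Summed level of each list of cell type markers in CPM (log scale) for WT (blue) and Exon2KO (orange). The summed epithelial lists are higher in Exon2KO, as is the gamma-delta T cell list, in which Tcrg-C1 makes up 64.7 of 84.3 CPM. The CD8 and NK list is lower, with Gzma at 328 of 348 CPM in WT and 10.3 of 23.1 CPM in Exon2KO. The B and plasma cell list differs little (8483 and 8031 CPM).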

How the data were processed

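The authors deposited 1 table of unnormalized counts of reads per gene. Per the submitters' processing notes, the build was mm10 and the tools named were HISAT2 2.0.5, StringTie 1.3.3b, featureCounts 1.5.0-p3 and DESeq2 1.16.1, with no roles given. The deposited FPKM values equal those recomputed from the counts, gene lengths and totals times 1 constant per library (1.03 for WT, 0.969 for Exon2KO). The deposited scaled count signal was not used. The log2 fold change and p-value columns are the authors' own comparison, deposited without a stated method, and are quoted only where named. Whether counting used strand is not given in the sources used here. All 8 genes have the same coordinates in GENCODE M21 (GRCm38).

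Library sizes were scaled by TMM (factors 0.964 for WT and 1.04 for Exon2KO; edgeR 4.0.16, R 4.3.3). The quasi-likelihood test of edgeR cannot be fitted without replicates, so a gene was called when past 2-fold, among the 17363 genes whose reads summed to at least 10. Log2 ratios used a prior count of 2, and their Clopper-Pearson 95% intervals, without the prior count, cover counting error only. Differences between the log2 ratios of 2 genes are conditional odds ratios with exact 95% intervals (scipy 1.17.1). The ratio and interval were tried on simulated counts with Poisson error only, which cannot check variation between mice or libraries. Alternatives varied the scaling (DESeq2 1.42.0 size factors among them), prior count, filter, fold and call rule. The members and lists were chosen with earlier results of these data known. Named genes are the 8 genes, list genes past 2-fold with at least 100 reads in 1 library, the most abundant gene per length of each pathway list, Foxp3 and cell type markers; further genes named (6 list genes with fewer reads, Adora1, Adora3, and genes that overlap or copy a named one) fall outside that rule and were added after values were seen.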

Additional observations from a re-analysis of the deposited data

How the results depend on the processing

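The number of the 8 genes past 2-fold was 1 (Adora2b) under the 5 other scalings, prior counts of 0.5 and 5, no read filter, 4-fold and an added exact binomial test of the reads. It was 0 with at least 100 reads, which removes Adora2b, 3 at 1.5-fold (Adora2a and Adk in addition), and 0 with edgeR's exact test at an assumed biological coefficient of variation of 0.2 or of 0.4. The 11 other pathway genes past 2-fold became 18 without a read filter, 5 with at least 100 reads, 20 at 1.5-fold, 3 at 4-fold, 5 at an assumed variation of 0.2 and 0 at 0.4. Scaling to T cell identity genes gave 10 higher and 3 lower in place of 5 and 6. That scaling set the median log2 ratio of all genes tested at 0.42, and total counts at 0.11, against 0.0035. Of the 8 genes, P2rx7 changed sign under both and Nt5e under the first. Nt5e was at -0.15 with total counts. Scaled to T cell identity genes, Entpd1 was at 0.42 and Dpp4 at 0.67. The differences between genes of 1 library do not depend on scaling. Depth limits Adora2b. No paired analysis was possible because neither genotype has a second sample.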
